A study of Danio rerio with 7 samples.

Results

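Voltage-gated sodium, calcium and potassium channels carry the currents that let nerve and muscle cells fire. They were taken here as the gene rows whose names begin with scn and a digit, with cacna, cacnb or cacng, or with kcna, kcnb, kcnc or kcnd and a digit, and that held at least 30 counts over the 6 bulk RNA-seq libraries. Of 30421 rows, 80 matched by name and 76 were kept. Each library was made from the pooled heads of zebrafish (Danio rerio) larvae aged 5 dpf (days post fertilization). There were 3 of wild type (WT) and 3 of hm41 mutant larvae, whose zygosity the labels do not give. WT 66, 67 and 68 and hm41 69, 70 and 71 are named by their label numbers. The submitters compared leaky mutants with their WT siblings to find the lesion, and they place that lesion on chromosome 14, at spock1, a secreted proteoglycan gene. The labels do not say that the libraries of a genotype came from separate clutches, so p-values measure only the spread between these libraries, which may be technical.

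Each sodium or calcium channel is built around 1 large pore-forming subunit, called alpha in sodium channels and alpha1 in calcium channels, while a potassium (Kv) channel pore is an assembly of several smaller alpha subunits. Accessory subunits (beta in sodium channels; alpha2delta, beta and gamma in calcium channels) set how many channels reach the membrane and how they open. Sodium channels start the action potential, Kv channels end it, and calcium channels turn it into transmitter release or contraction. Zebrafish often keep a pair of genes for a single mammalian gene, marked a and b. Protein and promoter sequences were not used here.

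Total counts per library were between 33775984 and 114604258, but only 1664845 to 4959749 counts lay outside the 8 most abundant rows. The channels together held between 6472 (WT 67) and 19801 counts (WT 66) per library, and the median channel gene held between 45.5 (WT 67) and 136 (WT 66). Levels are given as CPM, counts per 1e6 counts of the library total after scaling by trimmed mean of M-values (TMM). They are not divided by transcript length, so levels are compared between libraries and never between genes. The level of spock1 was 2.78, 2.01 and 1.95 CPM in WT 66, 67 and 68 and 2.20, 1.67 and 1.37 CPM in hm41 69, 70 and 71, and it did not pass the test (log2 fold change of hm41 over WT -0.38 ± 0.231, SE; adjusted p = 0.594 by edgeR). Of the 76 channel genes, 72 had a place in the GRCz12tu annotation, on 19 chromosomes, and 0 lay on chromosome 14.

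No channel subunit differed between hm41 and WT heads past the threshold. With edgeR's quasi-likelihood F-test and p-values adjusted by Benjamini-Hochberg over all 19275 tested genes, 0 of 73 tested channel genes had an adjusted p under 0.05, and 11 (0.0571%) of all tested genes did. At an unadjusted p under 0.05 there were 10 channel genes (13.7%), against 10.4% of all tested genes. Of these 10, 6 were higher and 4 lower in hm41, where the shares of all tested genes were 5.35% and 5.05%. DESeq2 also called 0 channel genes, and 151 of all genes, although it gave no adjusted p for 38 of the 76 channel genes. It had 8 channel genes (10.5%) at an unadjusted p under 0.05, against 5.99% of all genes to which it gave a p. Groups that did not overlap were seen for 7 channel genes with higher and 3 with lower values in hm41 (13.7% together). Among all tested genes these shares were 8.09% and 8.44% (16.5% together). Both channel shares of 13.7% are near the background.

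Precision differed by gene. The standard error of the log2 fold change ranged from 0.16 to 0.703 among the channel genes, with a median of 0.249. For 54 of the 73 the 95% confidence interval lay within a 2-fold change in either direction. The median log2 fold change of the channels was 0.05, beside -0.02 for all tested genes, and 40 channel genes (54.8%) had positive and 33 negative values, with 47.9% of all tested genes positive.

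**Figure D1:**
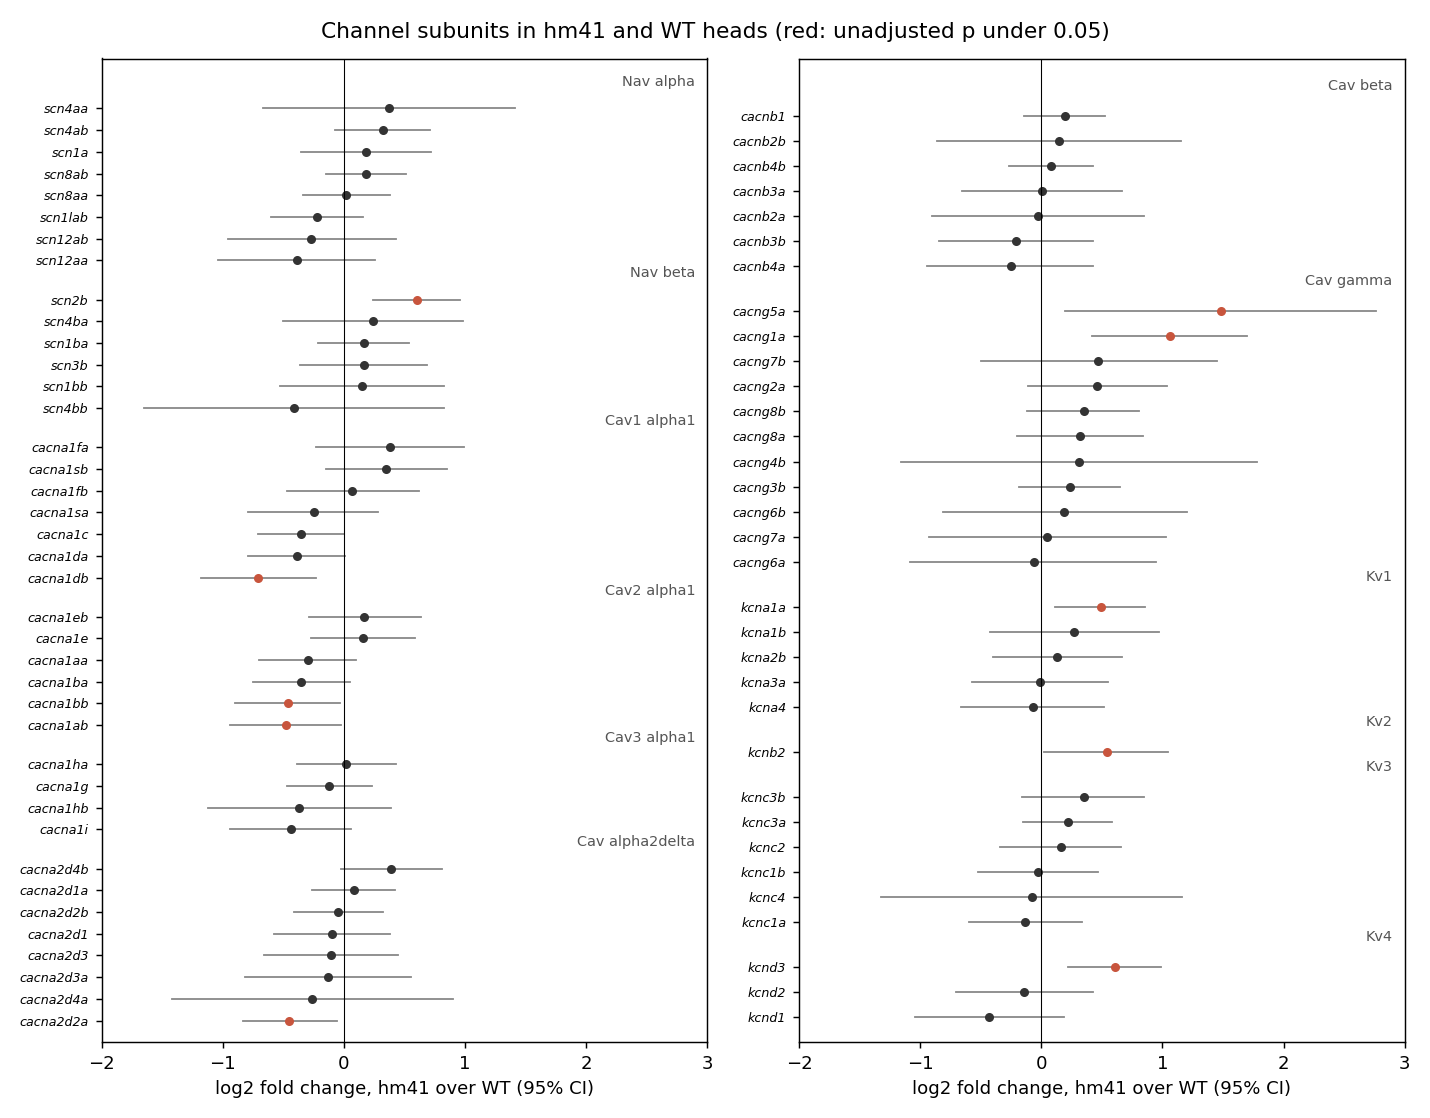
Log2 fold change of hm41 over WT (x axis) for 72 of the 73 tested channel genes (y axis), grouped by class, with the 95% confidence interval as a line. Red points mark the 10 genes at an unadjusted p under 0.05; the gamma subunits cacng5a (1.48) and cacng1a (1.06) lie farthest to the right and cacna1db (-0.71) farthest to the left.

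Of 8 tested sodium channel alpha genes 0 passed the threshold, and their log2 fold changes ran from -0.39 to 0.37, 5 of them positive and 3 negative (median 0.10). The gene with the most counts in the whole set was scn8aa, the zebrafish relative of mammalian SCN8A, which serves the axon's initial segment and nodes. It had 18.2, 17.6 and 15.0 CPM in WT 66, 67 and 68 and 20.8, 16.2 and 14.4 CPM in hm41 69, 70 and 71. Its groups overlapped fully, with the highest and the lowest value both in hm41, and the 95% confidence interval of the log2 fold change was -0.34 to 0.38 (value 0.02, adjusted p = 0.985 by edgeR). Its duplicate scn8ab had 8.34, 7.75 and 7.97 CPM in WT and 10.6, 8.73 and 8.01 CPM in hm41, with overlap between hm41 71 and the WT libraries (0.18 ± 0.16, SE, adjusted p = 0.744).

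Apart from the muscle genes scn4aa and scn4ab, the other alpha genes differed in sign without passing the test. For scn1lab, whose loss causes seizures in zebrafish larvae, the levels were 7.32, 10.0 and 6.76 CPM in WT and 7.69, 7.33 and 5.49 CPM in hm41. WT 67 was highest and hm41 71 lowest, and the log2 fold change of -0.22 turned to 0.03 with library totals alone in place of TMM. Its paralog scn1a, named scn1laa in current annotation, had 1.45, 1.29 and 1.87 CPM in WT and 2.04, 1.18 and 2.17 CPM in hm41 (0.18 ± 0.255, SE, adjusted p = 0.86 by edgeR), with hm41 70 the lowest of all 6. The rows scn12aa (-0.39) and scn12ab (-0.27) were on the lower side, each with overlapping groups. The row scn12ab is the current scn5lab, known from the heart. It was put on the heart list and scn12aa on the neural list.

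Of the sodium channel beta genes, scn2b had the highest log2 fold change. It encodes an accessory subunit with an adhesion-like outer domain that in mammals is tied to alpha subunits at the axon. Its levels were 3.26, 3.00 and 2.93 CPM in WT and 5.29, 4.57 and 4.13 CPM in hm41. Every hm41 library lay above every WT library, by a log2 fold change of 0.60 ± 0.173 (SE, 1.52-fold, unadjusted p = 0.00245, adjusted p = 0.204 by edgeR), which did not pass the threshold. The deposited values of scn2b were not whole in all 6 libraries, so part of its reads was shared with other rows and their division is uncertain. Its neighbour on chromosome 15 in GRCz12tu, scn4ba, had 0.833, 0.264 and 0.906 CPM in WT and 0.664, 0.950 and 0.879 CPM in hm41, with overlapping groups and the lowest value in WT 67. Over the 6 beta genes, 5 values were positive and 1, scn4bb, negative, with a median of 0.17.

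Of the high-voltage calcium channel alpha1 genes, 4 of 6 in the Cav2 class and 4 of 7 in the Cav1 class had lower values in hm41, and 0 passed the threshold. The Cav2 genes encode the presynaptic channels that trigger transmitter release: cacna1aa and cacna1ab the P/Q type, cacna1ba and cacna1bb the N type, and cacna1e and cacna1eb the R type. For cacna1ab the levels were 14.7, 13.9 and 8.40 CPM in WT and 11.5, 7.65 and 7.40 CPM in hm41. For cacna1bb they were 5.47, 4.95 and 3.56 CPM in WT and 4.39, 2.95 and 2.83 CPM in hm41. In both genes WT 68 fell among the hm41 libraries and below hm41 69, so the groups overlapped.

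A low value in WT 68 was also seen for cacna1aa, with 18.1, 21.0 and 12.1 CPM in WT and 15.5, 13.4 and 12.5 CPM in hm41. There WT 68 was the lowest of all 6. The log2 fold changes were -0.48 ± 0.218 (SE) for cacna1ab, -0.46 ± 0.207 for cacna1bb, -0.35 ± 0.192 for cacna1ba and -0.30 ± 0.19 for cacna1aa. Their adjusted p-values by edgeR lay between 0.446 and 0.614. The R-type genes had small positive values, 0.16 for cacna1e and 0.17 for cacna1eb. Over the 11 alternatives run the value of cacna1ab lay between -0.71 (without hm41 69) and -0.19 (library totals alone in place of TMM), that of cacna1bb between -0.68 and -0.19 under the same settings, and that of cacna1aa between -0.51 (without WT 68) and -0.03 (library totals alone). None of these passed the threshold.

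The Cav1 genes encode L-type channels, which serve different tissues, and a single gene can serve several. The lowest log2 fold change of all tested channel genes was that of cacna1db, at -0.71 ± 0.229 (SE, unadjusted p = 0.00601, adjusted p = 0.253 by edgeR). Its levels were 2.81, 3.43 and 1.92 CPM in WT and 1.48, 1.79 and 1.61 CPM in hm41. All hm41 libraries lay below WT 68, the lowest WT library. Its duplicate cacna1da, which hair cells of the ear and lateral line need to signal sound and motion, had 6.12, 5.18 and 4.08 CPM in WT and 4.37, 4.22 and 3.10 CPM in hm41, with WT 68 among the hm41 values (-0.39 ± 0.19, SE, adjusted p = 0.489).

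For cacna1c, the L-type channel of the heart that brain and smooth muscle use too, levels were 8.51, 10.6 and 7.13 CPM in WT and 6.87, 7.08 and 6.42 CPM in hm41. The groups did not overlap, but hm41 70 and WT 68 were almost equal (-0.35 ± 0.169, SE, adjusted p = 0.482 by edgeR). The 8 hair cell markers summed to 18.8, 23.2 and 17.2 CPM in WT and 17.9, 16.0 and 15.2 CPM in hm41, with overlap. Of 6 tested markers 5 had negative values and 1 a positive value, and 47.9% of all tested genes had positive values. Of the 5 heart muscle markers with a row, 3 had positive and 2 negative values. The part that these cell types play in the values of cacna1da and cacna1c was not tested. In bulk samples, fewer cells of a type and less RNA per cell cannot be told apart.

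Low-voltage (Cav3, T-type) genes, which open near rest and support rhythmic firing, had values between -0.44 (cacna1i) and 0.02 (cacna1ha). The one with the most counts, cacna1g, had 6.0, 6.14 and 4.94 CPM in WT and 5.65, 5.49 and 4.52 CPM in hm41, with overlapping groups. Its log2 fold change of -0.12 turned to 0.13 with library totals alone.

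Among the accessory calcium channel genes, the gamma family had the most positive values. Of 13 kept gamma genes 11 were tested, and 10 of these had values above 0, with a median of 0.32. The family holds the muscle subunits gamma-1 and gamma-6 and the neural relatives, several of which are better known for carrying AMPA-type glutamate receptors to synapses. The muscle gene cacng1a had 0.428, 0.429 and 0.482 CPM in WT and 0.971, 0.889 and 0.952 CPM in hm41. The libraries of each genotype lay close together and far from the other genotype, at a log2 fold change of 1.06 ± 0.306 (SE, 2.08-fold, unadjusted p = 0.0026). It held 242 counts in all and did not pass the threshold (adjusted p = 0.204 by edgeR). The neural gene cacng5a had only 61 counts. Its levels were 0.110, 0.0990 and 0.0823 CPM in WT and 0.332, 0.173 and 0.342 CPM in hm41, again without overlap (1.48 ± 0.612, SE, adjusted p = 0.401).

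In GRCz12tu, cacng5a and cacng1a are neighbours on chromosome 6 with 0 protein-coding genes between them, and cacng4a, with 1 count in all, comes next. On chromosome 3 the duplicates cacng1b and cacng4b are likewise adjacent. The low counts of cacng1b allowed no test: it had 0.0658, 0.132 and 0.188 CPM in WT and 0.179, 0.0987 and 0.146 CPM in hm41, with full overlap. Besides cacng5a, 7 neural gamma genes were tested, all with overlapping groups. Their log2 fold changes were 0.46 for cacng2a, 0.24 for cacng3b, 0.31 for cacng4b, 0.05 for cacng7a, 0.47 for cacng7b, 0.32 for cacng8a and 0.35 for cacng8b, and 0 passed the threshold (adjusted p-values from 0.59 to 0.982 by edgeR).

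The alpha2delta and beta genes showed smaller values. Of 8 alpha2delta genes 6 had values below 0, although the class median of -0.10 became 0.14 with library totals alone. For cacna2d2a, a neural alpha2delta gene, levels were 5.86, 6.63 and 4.56 CPM in WT and 4.98, 3.57 and 3.96 CPM in hm41, with WT 68 below hm41 69 (-0.45 ± 0.185, SE, adjusted p = 0.406 by edgeR). The beta genes bind the alpha1 subunit inside the cell, and their log2 fold changes ranged from -0.25 (cacnb4a) to 0.20 (cacnb1). The rows cacnb2a and cacnb2b are listed as each other's synonym in GRCz12tu, so which of the pair each row counts is uncertain.

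Kv genes split within their classes. The Kv4 gene kcnd3, which encodes a rapidly inactivating (A-type) channel of dendrites, had 3.30, 2.61 and 2.42 CPM in WT and 4.68, 4.15 and 3.93 CPM in hm41. All hm41 libraries were above all WT libraries (0.61 ± 0.183, SE, 1.52-fold, unadjusted p = 0.00357), but the adjusted p was 0.226 by edgeR. Its deposited values, like those of scn2b, were not whole in all 6 libraries. Its relative kcnd1 lay on the other side, with 0.899, 0.924 and 0.953 CPM in WT and 0.511, 0.852 and 0.659 CPM in hm41, also without overlap (-0.43 ± 0.295, SE, adjusted p = 0.658).

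Among Kv1 genes, which encode low-threshold channels of axons, kcna1a had 4.31, 3.79 and 3.53 CPM in WT and 4.32, 6.37 and 5.57 CPM in hm41. The groups did not overlap, but WT 66 and hm41 69 were almost equal. The log2 fold change was 0.49 ± 0.179 (SE, adjusted p = 0.332 by edgeR). The Kv2 gene kcnb2, which encodes a slow delayed rectifier, had 1.93, 2.41 and 2.40 CPM in WT and 1.84, 3.65 and 4.15 CPM in hm41. There hm41 69 was the lowest of all 6 libraries and the other hm41 libraries were the highest (0.54 ± 0.245, SE). Over the 11 alternatives its value lay between 0.29 and 0.80. The lower end came with a term for a split of the libraries by their counts of LOC110438492, the upper without hm41 69.

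The Kv3 genes serve neurons that fire at high rates. The one with the most counts, kcnc3a, had 10.1, 8.05 and 7.59 CPM in WT and 11.5, 10.3 and 8.18 CPM in hm41, with hm41 71 within the WT range (0.22 ± 0.173, SE, adjusted p = 0.71 by edgeR). The Kv3 values ran from -0.13 (kcnc1a) to 0.35 (kcnc3b).

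**Figure D2:**
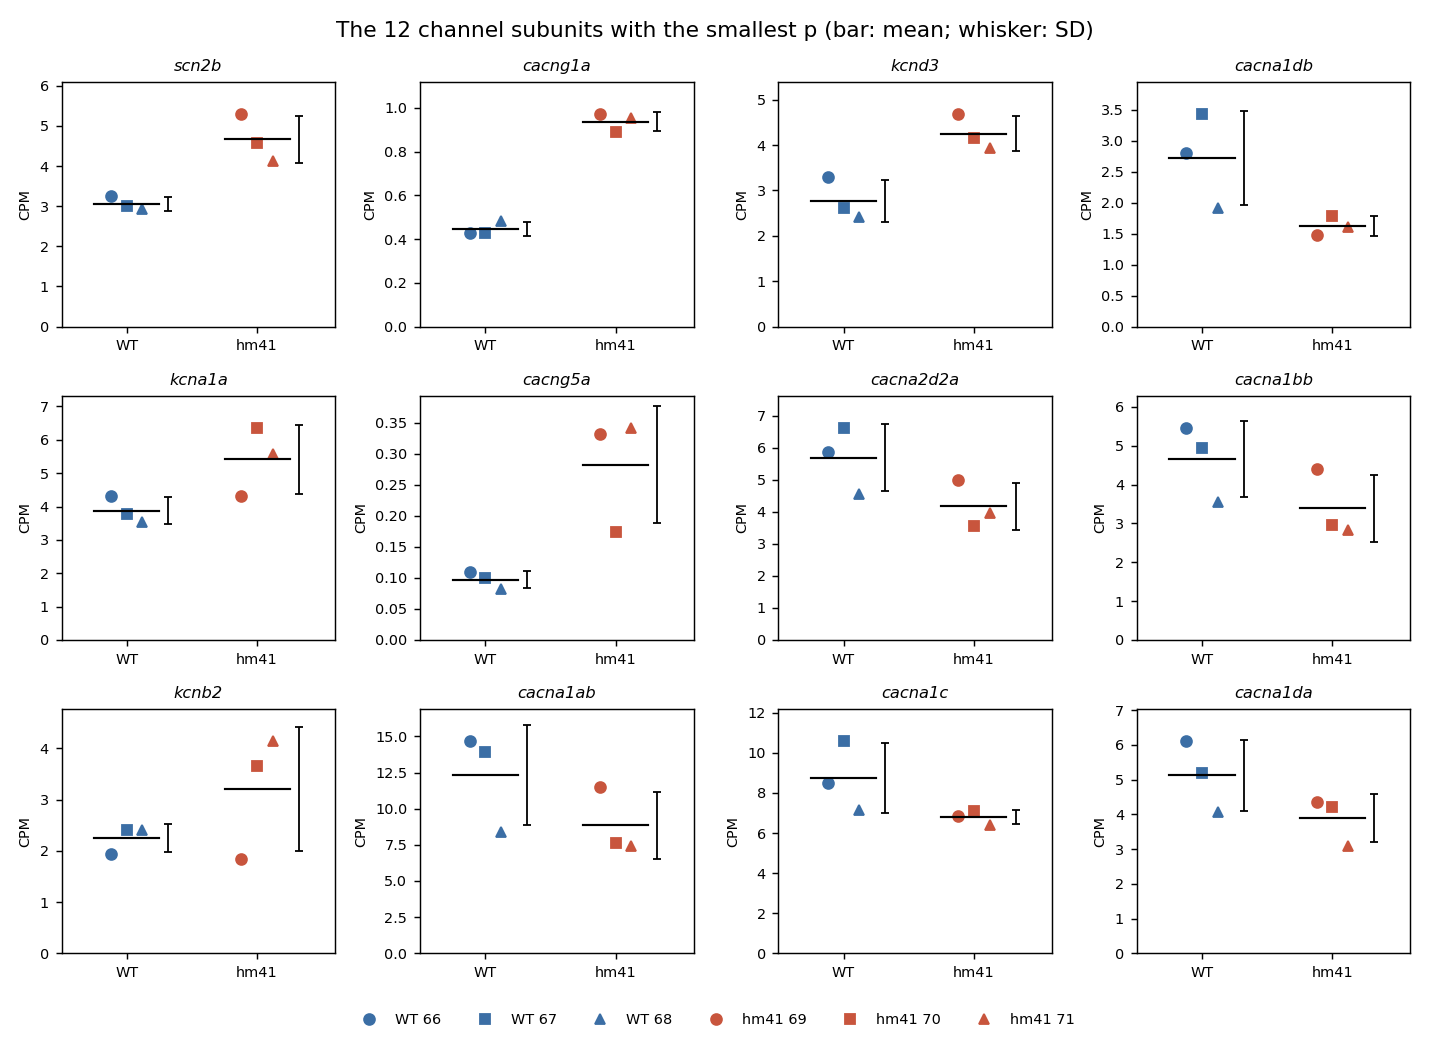
CPM (y axis) in each WT and hm41 library for the 12 channel genes with the smallest unadjusted p, with the mean as a bar and the SD as a whisker. The hm41 points of scn2b, cacng1a, kcnd3, cacng5a and, by very little, kcna1a lie above all WT points. Those of cacna1db and, by very little, cacna1c lie below them. WT 68 falls among the hm41 points for cacna1ab, cacna1bb, cacna1da and cacna2d2a.

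Summed by class, 4 of 12 classes had groups that did not overlap, all higher in hm41. The sodium channel beta sum was 9.93, 8.12 and 8.74 CPM in WT and 11.8, 11.7 and 10.3 CPM in hm41. The gamma sum was 9.54, 8.35 and 9.01 CPM in WT and 13.3, 11 and 10.8 CPM in hm41. Kv1 and Kv4 were the other two, with gaps between the groups of 9.12 to 9.45 and 5.71 to 5.90 CPM. In contrast the sodium channel alpha sum was 40.1, 41.3 and 35.9 CPM in WT and 46.3, 38.3 and 34.5 CPM in hm41, with full overlap. A sum is led by its rows with the most counts, and no p is given for it. Singly, 1 of 6 sodium channel beta genes (scn2b) and 1 of 5 tested Kv1 genes (kcna1a) had groups without overlap. Each had the highest CPM of its class. Of 11 tested gamma genes, 2 (cacng1a and cacng5a) had groups without overlap. The Kv4 sum was higher in hm41 although 2 of 3 Kv4 genes had negative values (median -0.14). Among single genes, 8.09% of all tested had higher values in hm41 without overlap. Sums and single genes are unlike measures, and no such share was computed for sums of other genes.

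Shares of all channel CPM do not depend on how libraries are scaled. Cav1 alpha1 genes made up 10.9%, 11.4% and 11.5% of channel CPM in WT and 9.62%, 9.75% and 9.72% in hm41. Shares of gamma genes were 4.39%, 3.91% and 5.18% in WT and 6.05%, 5.67% and 5.90% in hm41. By share, 5 classes were higher in every hm41 library (sodium channel beta, gamma, Kv1, Kv3 and Kv4) and 1 lower (Cav1). Shares of 1 total are tied to each other, so a lower share of some classes raises the rest. The Kv4 share was led by kcnd3, as 2 of 3 Kv4 genes had negative values. The sodium channel beta and Kv1 shares held scn2b and kcna1a as their genes with the highest CPM. Among single genes, 16.5% of all tested had groups without overlap, which is not a background for class shares. The Cav2 share was 21.5% ± 2.92 in WT and 17.6% ± 0.846 in hm41 (SD, n = 3 each), with WT 68 (18.1%) inside the hm41 range. Accessory genes had a median log2 fold change of 0.15 and pore-forming genes one of -0.03. Library totals alone moved the median of all tested genes from -0.02 to 0.20 and those medians to 0.34 and 0.21.

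**Figure D3:**
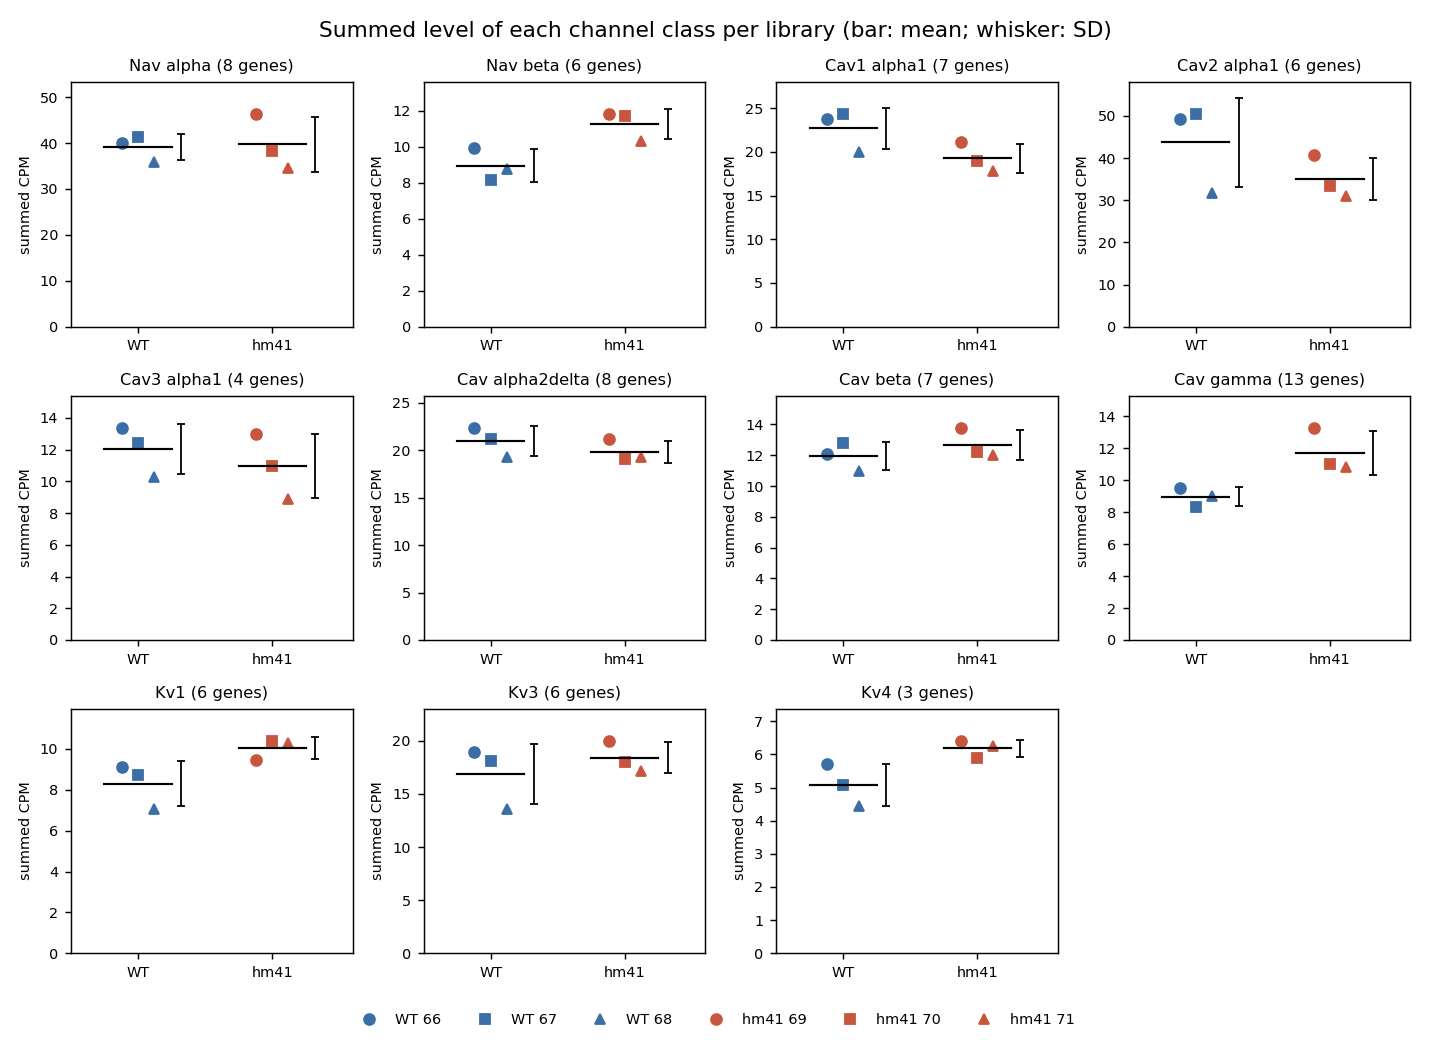
Summed CPM (y axis, from 0) of 11 of the 12 channel classes in each WT and hm41 library, with the mean as a bar and the SD as a whisker. Sodium channel beta, gamma, Kv1 and Kv4 sums are higher in every hm41 library; for Cav2 alpha1, WT 68 (31.6 CPM) sits near hm41 71 (31.1 CPM) and far from WT 66 and WT 67 (49.3 and 50.4 CPM).

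By tissue, 53 of the kept genes were on a list of neural subunits, 9 on one of skeletal muscle, 4 on one of photoreceptors, 2 on one of the heart, 1 of hair cells and 7 on none. The neural subunits summed to 169, 164 and 131 CPM in WT and 169, 149 and 141 CPM in hm41. The groups overlapped fully, with WT 68 the lowest. Of 51 tested neural subunits, 28 had positive and 23 negative values, with a median of 0.05, and 0 passed the threshold. Neuron markers went another way in the same libraries: 12 listed genes (gap43 at 0 in all libraries) summed to 127, 115 and 122 CPM in WT and 182, 162 and 140 CPM in hm41, without overlap, and all 11 tested had positive values (47.9% among all tested genes) with 0 past the threshold. The 8 glia markers summed to 93.2, 79.8 and 102 CPM in WT and 123, 134 and 114 CPM in hm41, also without overlap, with 7 positive and 1 negative value and 0 past the threshold. The difference between the channels and these markers was not tested.

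The summed level of the muscle subunits was higher in every hm41 library. It was 11.3, 11.7 and 13.2 CPM in WT and 15.5, 13.8 and 13.8 CPM in hm41. Of 8 tested, 6 had positive and 2 negative values, with a median of 0.26 and 0 past the threshold. The gene with the most counts on this list was cacnb1, with a WT mean of 5.01 CPM beside 12.1 CPM for the sum. Unlike the sum, cacnb1 was lowest of all 6 libraries in WT 68, and its deposited values were not whole in all 6. The gap between the groups in the sum depends on this gene. Skeletal muscle markers summed to 538, 405 and 774 CPM in WT and 700, 762 and 615 CPM in hm41, with overlap. WT 68 was the highest WT library in both lists, and the part of muscle content in the subunit values was not tested.

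Single muscle genes differed in how they followed that order. The sodium channel scn4ab, which drives muscle action potentials, had 2.41, 2.11 and 2.72 CPM in WT and 3.22, 2.88 and 3.05 CPM in hm41, without overlap (0.32 ± 0.187, SE, adjusted p = 0.582 by edgeR). The voltage sensor gene cacna1sb had 1.44, 1.48 and 2.58 CPM in WT and 2.76, 2.21 and 2.17 CPM in hm41, so that WT 68 lay inside the hm41 range. Its duplicate cacna1sa had 1.23, 1.06 and 1.68 CPM in WT and 1.07, 1.01 and 1.32 CPM in hm41, with WT 68 highest of all. The beta gene cacnb1, without which zebrafish muscle cannot couple excitation to contraction, had 5.05, 5.61 and 4.38 CPM in WT and 6.03, 5.68 and 5.42 CPM in hm41, with overlap (0.20 ± 0.162, adjusted p = 0.724). The rest had low counts: scn4aa and cacng6b had values of 0.37 ± 0.498 and 0.19 ± 0.481, and cacng6a one of -0.06 ± 0.485 that became 0.11 with library totals alone.

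Photoreceptor subunits form the channel at the terminals of rods and cones. The alpha2delta gene cacna2d4b had 2.03, 2.05 and 1.74 CPM in WT and 2.76, 2.41 and 2.47 CPM in hm41. No hm41 library fell into the WT range, but the log2 fold change of 0.39 ± 0.198 (SE) did not pass the threshold (unadjusted p = 0.0599, adjusted p = 0.508 by edgeR). The alpha1 gene cacna1fa had 1.29, 1.45 and 1.02 CPM in WT and 2.27, 0.938 and 1.73 CPM in hm41, and cacna1fb had 2.27, 1.09 and 1.6 CPM in WT and 2.27, 1.68 and 1.44 CPM in hm41, both with overlap. The counts of cacna2d4a were low (-0.26 ± 0.557).

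Together the photoreceptor subunits summed to 5.84, 4.75 and 4.81 CPM in WT and 7.54, 5.43 and 5.71 CPM in hm41, with overlap. The 12 photoreceptor markers summed to 240, 200 and 305 CPM in WT and 412, 432 and 424 CPM in hm41. All 12 had positive values, against 47.9% of all tested genes, and 1, the ultraviolet cone opsin opn1sw1, passed the threshold (adjusted p = 0.0328 by edgeR), which 0.0571% of all tested genes passed. Markers of bipolar cells and other retinal interneurons overlapped between the groups, at 16.7, 21.2 and 12.8 CPM in WT and 15.8, 16.1 and 12.9 CPM in hm41. The part of photoreceptor content in the values of cacna2d4b and cacna1fa was not tested.

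Set against the neural sum of the same library, the muscle sum was 0.0668, 0.0714 and 0.101 in WT and 0.0914, 0.0922 and 0.098 in hm41, so WT 68 had the highest ratio. For photoreceptor subunits the ratio was 0.0346, 0.0289 and 0.0368 in WT and 0.0446, 0.0364 and 0.0405 in hm41, with WT 68 above hm41 70. Neither ratio separated the genotypes.

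**Figure D4:**
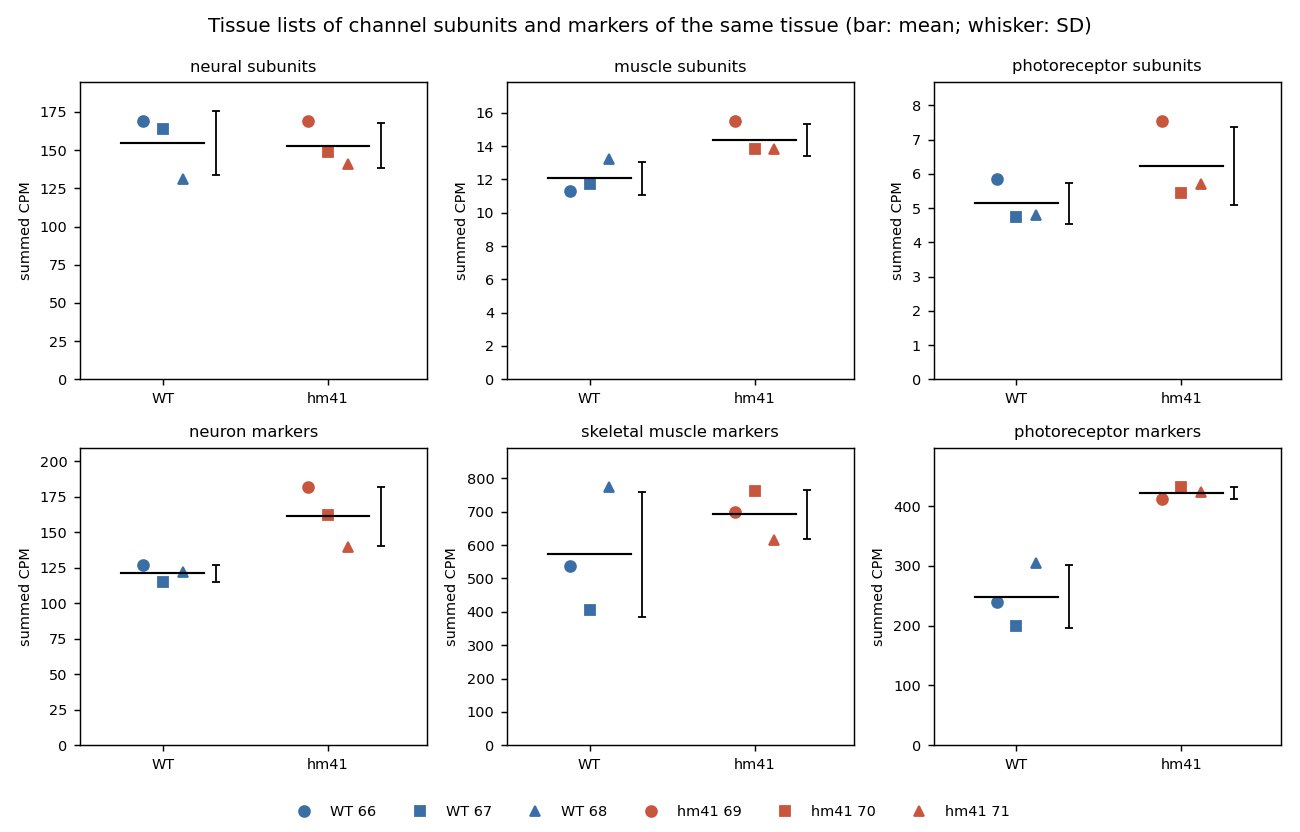
Summed CPM (y axis, from 0) per library of channel subunits on the neural, muscle and photoreceptor lists (top) and of markers of the same tissues (bottom), with the mean as a bar and the SD as a whisker. Neural subunits overlap while neuron markers do not. The muscle subunit sums, led by cacnb1, do not overlap while the muscle marker sums do. Photoreceptor subunits overlap while photoreceptor markers do not.

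Partner genes of these channels, taken with other channel families (KCNQ, KCNH, HCN and the sodium leak channel), likewise held no call. Together they are called partner families here. Of 66 genes with at least 30 counts, 57 were tested, 0 passed the threshold by edgeR (0.0571% of all tested genes did) and 2 (3.51%) had an unadjusted p under 0.05, 1 in each direction, against 10.4% of all tested genes. The median was -0.02. The gene on the higher side was fgf11b, which encodes a cytoplasmic sodium channel partner, with 1.45, 1.09 and 1.69 CPM in WT and 2.63, 2.37 and 1.49 CPM in hm41 (0.59 ± 0.245, SE, adjusted p = 0.405). On the lower side was cntnap2b, whose product gathers Kv1 channels beside the nodes of myelinated axons, with 3.86, 3.70 and 3.15 CPM in WT and 2.89, 2.69 and 1.90 CPM in hm41, without overlap (-0.51 ± 0.197, adjusted p = 0.363).

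Each of the 4 genes of the HCN family, the pacemaker channels that open on hyperpolarization, had a negative value, with a median of -0.48. Of all tested genes 47.9% had positive values, and 8.44% were lower in hm41 without overlap. The lowest was hcn4, with 0.822, 0.561 and 0.670 CPM in WT and 0.409, 0.457 and 0.415 CPM in hm41, without overlap (-0.70 ± 0.337, SE, unadjusted p = 0.0524, adjusted p = 0.489 by edgeR). The sodium leak channel nalcn was nearly level, at 3.46, 3.40 and 3.41 CPM in WT and 3.27, 3.36 and 3.22 CPM in hm41, although its groups did not overlap either. Kv4 partners had a median of 0.07, Kv beta subunits one of 0.03 and muscle calcium release partners one of 0.15.

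At the lower limit of counts, the kept genes nearest to 30 counts were cacng5b (39 counts) and cacng1b (47). Just under it were kcna10a (17) and cacng3a (9). Besides cacng5b and cacng1b, kcna6a (53 counts) was kept but did not pass the low-count filter of the test.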

How the data were processed

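The authors deposited unscaled expected counts for each gene. The tools RSEM, TopHat and Bowtie2 and the build GRCz11 come from the submitters' processing notes, which state neither roles nor versions. For the annotation release and strandedness of counting, the sources used here give nothing. The deposited values (between 17.8% and 23.2% per library not whole) were rounded to whole counts. Genes were kept by filterByExpr and tested with edgeR 4.0.16 in R 4.3.3 (TMM, robust quasi-likelihood F-test, no covariate, two-sided, Benjamini-Hochberg over all genes). DESeq2 1.42.0 was an alternative. The steps were tested on simulated data. CPM are counts per 1e6 scaled library counts. The remaining 1 of 7 samples, a single-cell library of mixed genotypes, was not analysed here. The values of 1 tested channel gene are not reported here; it counts in the totals and tissue sums, and the plots of single genes and of classes do not show it.

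The channel genes and all lists were chosen with earlier results of these data known. Named were the genes of the muscle, photoreceptor, heart and hair cell lists, all sodium channel alpha genes, the 12 smallest p, the gene with the highest CPM in each class (per kb was planned, but transcript lengths were not used here), those nearest to 30 counts, and for partner families the smallest p. Other names were chosen after their values were seen: cacna1ba, cacna1e, cacna1eb, cacna1ha, cacna1i, cacnb2a, cacnb2b, cacnb4a, cacng2a, cacng4a, cacng4b, cacng7a, cacng7b, cacng8a, cacng8b, kcna6a, kcnc1a, kcnc3b, kcnd1, scn4ba and scn4bb. Rows scn1a and scn12ab were matched through RefSeq synonyms; cacna1e, cacna1i and kcnb2 were put on the neural list by family. Reads of close paralogs may be split: 5 of the 76 channel genes (cacna2d2a, cacnb1, cacnb2a, kcnd3, scn2b) had values that were not whole.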

Additional observations from a re-analysis of the deposited data

How the results depend on the processing

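No channel gene was called under any of the 11 alternatives run. These were library totals alone, DESeq2, no low-count filter, removal of the 8 most abundant rows, a term for the split by LOC110438492, and each library left out. Of all genes, the main fit called 11. DESeq2 called 151, the fit without the low-count filter 131, library totals alone 47, and leaving out WT 68 gave 44. The other alternatives called between 6 (without hm41 70) and 20 (without hm41 69). The split by LOC110438492 sets libraries with high counts of this row against those with low counts. It was drawn from these same data, and its balance over the genotypes is not given here. Its term moved the Cav2 median from -0.33 to -0.15, cacna1ab from -0.48 to -0.23 and cacna1aa from -0.30 to -0.11. It moved kcnb2 from 0.54 to 0.29, but scn2b from 0.60 to 0.66 and kcnd3 from 0.61 to 0.69. The lowest adjusted p of any channel gene was 0.0714 (scn2b, DESeq2). The count at an unadjusted p under 0.05 was 10 (13.7%, all tested genes 10.4%). It became 14 without WT 68 (19.7%, all genes 11.4%), 12 without hm41 69 (16.2%, all genes 10.5%), 6 without WT 66 (8.33%, all genes 7.9%), WT 67 (8.0%, all genes 8.37%) or hm41 70 (8.33%, all genes 8.13%), and 5 without hm41 71 (6.76%, all genes 7.98%). With library totals alone all 8 such genes were higher in hm41, against 6 of 10 with TMM; of all tested genes 9.25% were then higher and 0.861% lower at that p. That scaling moved the channel median from 0.05 to 0.28 and the summed levels (log2 hm41 over WT) of neural subunits from -0.01 to 0.23, of muscle subunits from 0.25 to 0.49 and of photoreceptor subunits from 0.27 to 0.50, while the median of all genes went from -0.02 to 0.20. Without 1 library the channel median lay between -0.06 and 0.14, the neural value between -0.13 and 0.06, the muscle value between 0.20 and 0.31 and the photoreceptor value between 0.13 and 0.37. Of 363 values of 33 named genes under alternatives, 13 turned sign. With library totals alone these were cacna1g (0.13), cacng6a (0.11) and scn1lab (0.03). With 1 library left out, cacna1fb ranged from -0.12 to 0.38, cacna2d4a from -0.99 to 0.20, cacng6a from -0.48 to 0.38, scn12ab from -0.51 to 0.01 and scn8aa from -0.14 to 0.14. The cause was not tested. Class medians that turned sign with library totals alone included those of Cav3 (-0.24 to 0.02), alpha2delta, Kv4 (-0.14 to 0.10) and pore-forming genes. No paired analysis was made because the labels do not pair WT with hm41 libraries. Intervals were wide for some genes with few counts, such as cacng5a (61 counts, interval 0.2 to 2.76). Intervals also reached past a 2-fold change for cacna1db (792 counts, -1.18 to -0.23) and kcnb2 (991 counts, 0.02 to 1.05). The part of depth in these intervals was not tested.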

Other observations

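Silent Kv subunits, which modify other Kv channels and form none alone, had 10 rows with at least 30 counts, 7 tested and 0 past the threshold by edgeR (0 also at an unadjusted p under 0.05). The one with the smallest p was kcnv2a, whose mammalian relative is known from photoreceptors, with 0.274, 0.627 and 0.388 CPM in WT 66, 67 and 68 and 0.281, 0.358 and 0.244 CPM in hm41 69, 70 and 71. Its WT and hm41 libraries overlapped. The sum of the 12 photoreceptor markers did not overlap between the groups. Singly, 6 of these 12 markers had groups without overlap, beside 16.5% of all tested genes. The list was chosen with earlier results known and its genes belong to the same cell type, so these shares are a description and no test. The difference between kcnv2a and the markers was not tested. The KCNH family had 10 tested genes, 5 with positive and 5 with negative values.

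WT 68 had the lowest WT level for 42 of the 73 tested channel genes and the highest for 15. In hm41, library 69 was the highest for 40 and library 71 the lowest for 37. The summed channel level was 217, 214 and 174 CPM in WT 66, 67 and 68 and 219, 194 and 183 CPM in hm41 69, 70 and 71, a spread within each genotype that exceeded the distance between the genotype means (201 and 199 CPM).

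Gene span in GRCz12tu, introns included, went with a small gradient over all tested genes with a place there. The fifth of genes with the shortest spans had a median log2 fold change of 0.02 and the fifth with the longest one of -0.05. Of the tested channel genes, 40 were in the fifth with the longest spans (median 0.01) and 19 in the next (median -0.03). The part of transcript length in these values was not tested.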
